A study of Arabidopsis thaliana with 12 samples.

Results

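The genotype by temperature interaction measures, gene by gene, how far the response of fve-4 seedlings to 27 °C departed from that of wild-type seedlings. It is the change at 27 °C against 21 °C in fve-4 minus the same change in Columbia (Col), on the log2(TPM + 1) scale, where TPM is read density per gene scaled to the same total in each library. All 12 of the 12 libraries of the series enter it, and it was tested for the 19863 of 27655 Arabidopsis genes with at least 1 TPM in at least 3 libraries. A positive interaction means that fve-4 rose more or fell less than Col at 27 °C, and a negative one that it rose less or fell more. The 4 groups of 3 libraries were fve-4 at 27 °C, fve-4 at 21 °C, Col at 27 °C and Col at 21 °C. Both genotypes were raised for 7 days at 21 °C under 8 h light and 16 h dark. At ZT1 (zeitgeber time, hours after lights on) some were moved to 27 °C, and whole seedlings of all groups were taken at ZT13, in the dark. fve-4 is the 1 mutant allele in the series, of the gene FVE, and the labels name no transgene or rescued line. No label states that the replicates were grown separately, so p-values measure the spread between libraries, which may be technical.

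The reads recovered behind the TPM values numbered between 11439291, in replicate 3 of Col at 27 °C, and 14533734, in replicate 3 of Col at 21 °C. The first principal component held 54.6% of the variance and separated the temperatures. The second held 18.6% and separated the genotypes. On the first, replicate 1 of fve-4 at 27 °C was at -6.9, against -20.1 and -19.5 for the other libraries of its group. On the second, replicate 3 of Col at 27 °C was at -28.3, against -12.4 and -13.3. For some of the genes where either library was the outermost of its group, the interaction is also given without it. Of the marker lists, 15 of 15 root markers, 11 of 11 root hair genes, 8 of 11 seed maturation genes and 1 of 8 flower and pollen genes passed the filter. Because the TPM were computed per gene span, introns included, levels are compared within a gene and not between genes.

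In Arabidopsis a mild rise in temperature lengthens hypocotyls and petioles. The bHLH factor PIF4 accumulates, switches on auxin synthesis and brassinosteroid-responsive genes, and is held back by light receptors and by the evening complex of the clock. FVE is a WD40-repeat protein of histone deacetylase complexes, best known for repressing the floral repressor FLC. Histone H2A.Z, whose removal from nucleosomes accompanies gene induction by warmth, is named with FVE and the deacetylase HDA9 in the title of the series.

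Of the 19863 genes tested, 2851 had a positive interaction (14.4%) and 3585 a negative one (18.0%), 6436 in either direction (32.4%), by limma with Benjamini-Hochberg adjustment. An interaction of at least 1 on the log2 scale was reached by 505 of the positive genes (2.54% of those tested) and 347 of the negative ones (1.75%). The median interaction over all genes tested was -0.02. The 14.4% and 18.0% are the shares that the list counts below stand against. Lists and members were chosen with earlier results of these data known, so their counts and medians are descriptions, not independent support. In the same fit 4998 genes rose (25.2%) and 2781 fell (14.0%) at 27 °C in fve-4, and 7297 rose (36.7%) and 4990 fell (25.1%) in Col. Most negative interactions belonged to genes that warmth raised in Col. Of the 3585, 1542 rose in both genotypes and 1570 rose in Col with no call in fve-4, while 151 fell in fve-4 and rose in Col. Most positive interactions belonged to genes that warmth lowered in Col. Of the 2851, 760 fell in both genotypes and 1401 fell in Col with no call in fve-4, while 222 rose in fve-4 and fell in Col. A response of fve-4 that was called in the same direction as that of Col and went beyond it was rarer: 81 genes with a positive interaction rose in both, and 53 with a negative one fell in both. Across the 19863 genes the change of fve-4 and the change of Col, which share no library, had a Pearson r of 0.613 and a Spearman rho of 0.616, given as a description because genes are not independent replicates.

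**Figure D1:**
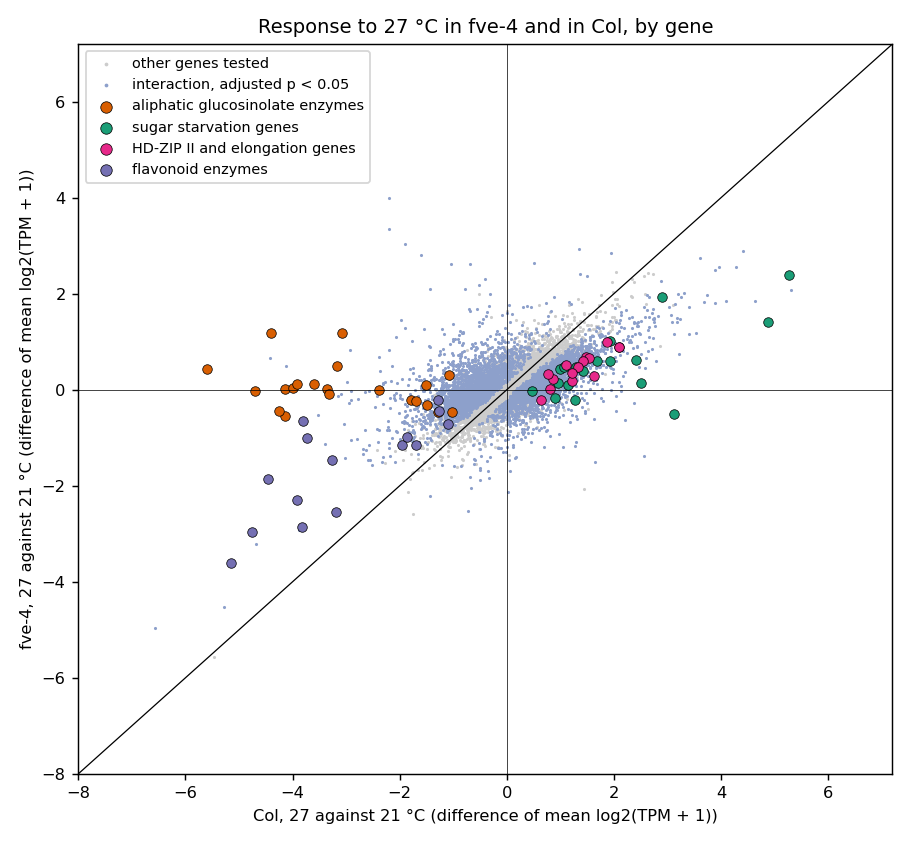
Change at 27 °C against 21 °C in fve-4 (vertical axis) and in Col (horizontal axis), as differences of mean log2(TPM + 1), 1 point per gene tested, with the diagonal marking equal change. The median change of methionine chain elongation genes was 0.01 in fve-4 and -3.48 in Col, all 15 flavonoid enzymes lie above the diagonal, and the sugar starvation and elongation genes lie right of the diagonal.

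FVE itself was the first gene examined. FVE (AT2G19520) was at 7.00, 6.82 and 6.64 TPM in fve-4 at 27 °C and 4.89, 5.48 and 5.08 TPM in fve-4 at 21 °C, against 39.3, 41.6 and 39.9 TPM in Col at 27 °C and 52.7, 51.8 and 50.3 TPM in Col at 21 °C. Every fve-4 library was below every Col library, at both temperatures. FVE had an interaction of 0.70 ± 0.09 (SE; adjusted p = 0.000121), with a change at 27 °C of 0.35 in fve-4 and -0.35 in Col. HDA9 (AT3G44680), the deacetylase paired with FVE in the title, had an interaction of 0.08 ± 0.11 (adjusted p = 0.62). Of 9 genes of FVE, HDA9 and partner proteins, 2 had a positive interaction and 1 a negative one (32.4% called over all genes tested). These were FVE, MSI1 (AT5G58230), which encodes another WD40 histone-binding protein, at 0.32, and the deacetylase gene HDA5 (AT5G61060) at -0.33. The MSI1 call was lost without any 1 of 6 libraries, at an adjusted p up to 0.0681. Of 8 genes of H2A.Z and its deposition, 2 were positive and 4 negative (14.4% and 18.0% over all genes tested). The H2A.Z genes HTA11 (AT3G54560) and HTA8 (AT2G38810) were at 0.57 ± 0.12 and 0.44 ± 0.12. The negative members included the remodeller gene INO80 (AT3G57300) at -0.76 ± 0.08, and ARP6 (AT3G33520), a subunit of the SWR1 complex that deposits H2A.Z, at -0.47 ± 0.12. A further H2A.Z gene, HTA9 (AT1G52740), named after its value was seen, was at -0.34 ± 0.08. PIE1 (AT3G12810), the catalytic subunit of SWR1, was at 0.02 ± 0.10 (adjusted p = 0.91).

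Of 19 regulators of warm growth, 13 had negative interactions and 1 a positive one (18.0% and 14.4% over all genes tested). When 1 library was left out, 10 to 14 were negative. Their median interaction was -0.63, and their median change at 27 °C was 0.23 in fve-4 and 0.80 in Col. PIF4 (AT2G43010), which promotes elongation in warmth, was at 36.8, 55.2 and 50.99 TPM in fve-4 at 27 °C and 7.65, 7.96 and 6.85 TPM in fve-4 at 21 °C, against 78.1, 85.9 and 85.3 TPM in Col at 27 °C and 3.31, 5.18 and 5.79 TPM in Col at 21 °C. No 2 groups overlapped: fve-4 was below Col at 27 °C and above it at 21 °C. The interaction of PIF4 was -1.39 ± 0.23 (SE; adjusted p = 0.000505), and that of its close relative PIF5 (AT3G59060) was -1.31 ± 0.21. HFR1 (AT1G02340), which encodes a bHLH protein that binds PIFs and blocks them, was at 9.37, 11.3 and 9.41 TPM in fve-4 at 27 °C and 4.94, 4.23 and 3.25 TPM in fve-4 at 21 °C, against 36.3, 42.9 and 39.9 TPM in Col at 27 °C and 7.53, 6.54 and 8.39 TPM in Col at 21 °C. Its fve-4 libraries were below the Col libraries of the same temperature, and its interaction was -1.15 ± 0.18 (adjusted p = 0.000401). BBX24 (AT1G06040), a B-box factor, had an interaction of -0.97 ± 0.17. The positive member, named after its value was seen, was HY5 (AT5G11260), the bZIP factor of light signalling that opposes PIF4, at 0.47 ± 0.15 (adjusted p = 0.0316). That call was lost without any 1 of 6 libraries. COP1 (AT2G32950), the ubiquitin ligase that removes HY5, was at -0.10 ± 0.10 (adjusted p = 0.489). In a whole seedling, fewer cells of a type and less RNA per cell cannot be told apart, here and in the results that follow.

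All 15 genes of HD-ZIP II factors and elongation targets had a negative interaction by limma, with a median of -0.85. That list was chosen with earlier results of these data known. With median-ratio or quantile scaling 14 were called, and by limma-voom 13. The call of PRE1 (AT5G39860), a small helix-loop-helix growth factor, was lost under 16 of 21 alternatives (adjusted p = 0.0445, and up to 0.202). Warmth raised 9 of the 15 genes in fve-4 (25.2% over all genes tested) and 15 in Col (36.7%). The median change over the list was 0.48 in fve-4 and 1.32 in Col. ATHB2 (AT4G16780), a homeodomain-leucine zipper factor of shade and warm elongation, was at 13.6, 14.6 and 18.02 TPM in fve-4 at 27 °C and 8.03, 7.27 and 8.11 TPM in fve-4 at 21 °C, against 45.3, 41.9 and 43.4 TPM in Col at 27 °C and 8.82, 10.9 and 8.53 TPM in Col at 21 °C. At 27 °C the fve-4 libraries were all below the Col libraries, with an interaction of -1.21 ± 0.15 (adjusted p = 8.35e-05). LNG2 (AT3G02170), which promotes lengthwise growth of organs, was at 35.8, 42.6 and 39.03 TPM in fve-4 at 27 °C and 20.96, 19.4 and 21.6 TPM in fve-4 at 21 °C, against 87.3, 90.5 and 95.95 TPM in Col at 27 °C and 19.1, 21.7 and 21.3 TPM in Col at 21 °C. At 21 °C the genotypes overlapped, and at 27 °C they did not, with an interaction of -1.20 ± 0.11 (adjusted p = 7.58e-06). For HAT3 (AT3G60390), another HD-ZIP II gene, the changes at 27 °C were 0.17 in fve-4 and 1.21 in Col, and in fve-4 the temperatures overlapped.

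Among 9 auxin synthesis genes 2 had negative interactions, close to the 18.0% over all genes tested, and 0 had positive ones. Both negative members encode YUCCA flavin monooxygenases. YUC8 (AT4G28720) was at 4.39, 4.21 and 5.38 TPM in fve-4 at 27 °C and 2.21, 3.81 and 3.42 TPM in fve-4 at 21 °C, against 18.1, 20.8 and 21.97 TPM in Col at 27 °C and 3.62, 2.16 and 2.94 TPM in Col at 21 °C. Col at 27 °C stood far above the other groups, both 21 °C groups overlapped, and the interaction was -2.00 ± 0.24 (adjusted p = 6.4e-05). YUC2 (AT4G13260) had an interaction of -0.98 ± 0.18, and TAA1 (AT1G70560), the aminotransferase of the step before, one of 0.10 ± 0.15 (adjusted p = 0.651). Of 22 Aux/IAA genes, which encode repressors that auxin both degrades and induces, 12 were negative and 0 positive, with a median of -0.44. IAA2 (AT3G23030) was at 85.04, 89.9 and 96.8 TPM in fve-4 at 27 °C and 50.8, 48.9 and 48.3 TPM in fve-4 at 21 °C, against 231, 222 and 234 TPM in Col at 27 °C and 43.96, 45.1 and 42.2 TPM in Col at 21 °C. The fve-4 libraries were below Col at 27 °C and slightly above it at 21 °C, and the interaction was -1.50 ± 0.07 (adjusted p = 1.33e-07). IAA29 (AT4G32280) was at 11.1, 16.8 and 17.6 TPM in fve-4 at 27 °C and 1.93, 1.15 and 2.06 TPM in fve-4 at 21 °C, against 108, 119.7 and 119 TPM in Col at 27 °C and 6.40, 4.45 and 4.32 TPM in Col at 21 °C. Every fve-4 library was below every Col library at each temperature, with an interaction of -1.72 ± 0.25. IAA9 (AT5G65670) was at 0.01 ± 0.06 (adjusted p = 0.946). Of 16 genes of auxin conjugation, oxidation and transport, 9 were negative and 1 was positive, and the positive count was 0 without any 1 of 7 libraries. GH3.5 (AT4G27260), which joins auxin to amino acids, had an interaction of -1.39 ± 0.10, and PIN3 (AT1G70940), an auxin efflux carrier of the hypocotyl, one of -1.04 ± 0.09. LAX1 (AT5G01240), an influx carrier, was at -1.11 ± 0.12. For LAX1 the change at 27 °C was -0.03 in fve-4 and 1.09 in Col, and the difference of fve-4 from Col was -0.71 at 27 °C and 0.41 at 21 °C. Of 17 SAUR growth genes 9 were negative and 0 positive, but limma-voom on recovered reads called 3 and a pseudocount of 0.1 TPM 5, and reads of the near-identical SAUR19 to SAUR24 cluster may be split between copies.

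**Figure D2:**
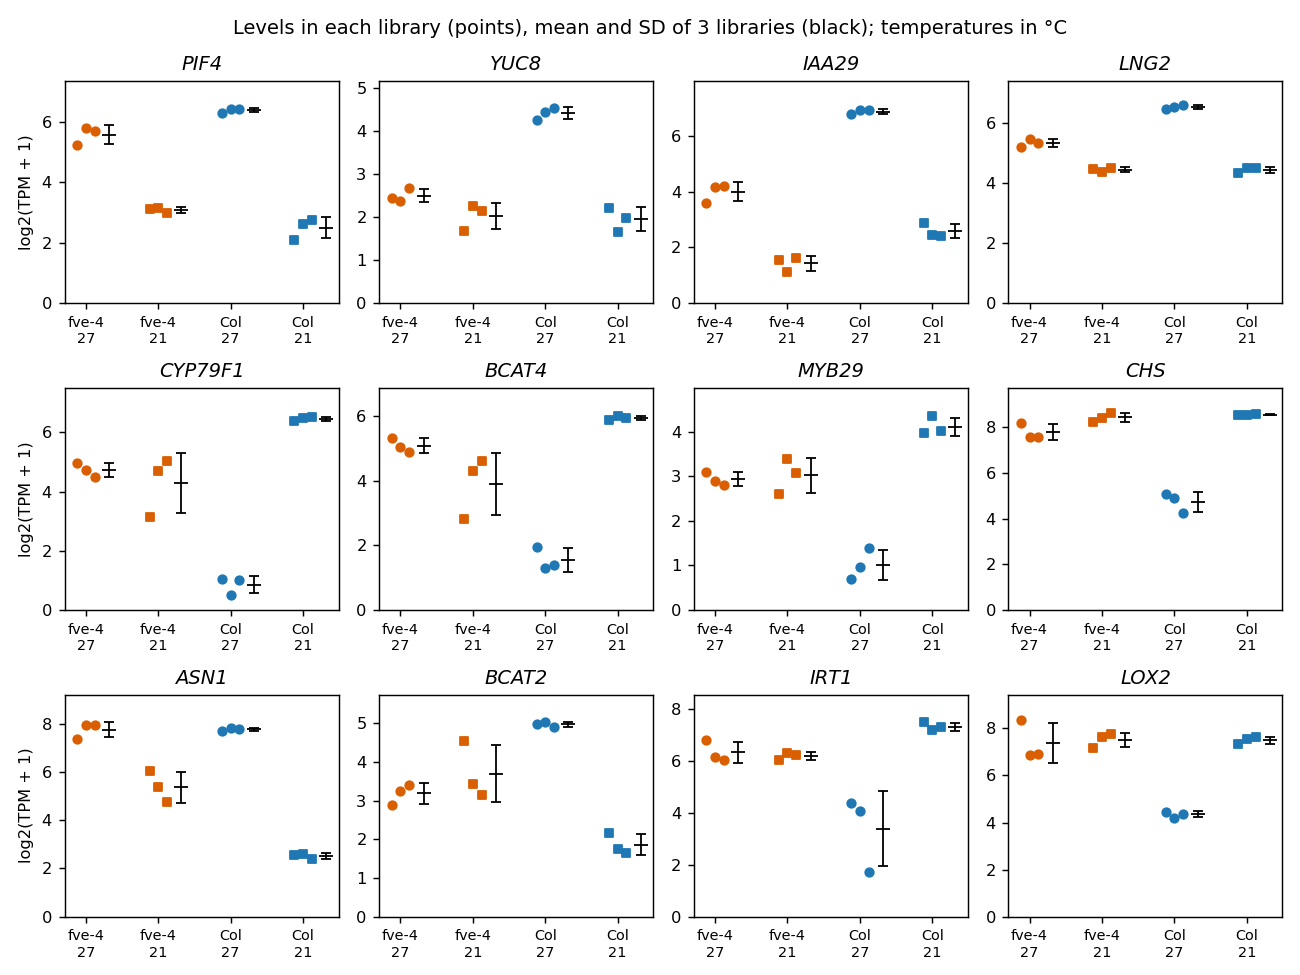
Level of 12 genes in each library as log2(TPM + 1), with fve-4 in orange and Col in blue, 27 °C as circles and 21 °C as squares, and the mean and SD of 3 libraries in black. For PIF4, YUC8, IAA29 and LNG2 Col at 27 °C stands highest, and in CYP79F1, BCAT4, MYB29, CHS, IRT1 and LOX2 it stands lowest, with fve-4 between it and Col at 21 °C or overlapping Col at 21 °C.

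Brassinosteroid, ethylene and clock genes were mostly negative where they were called. Of 16 brassinosteroid genes 10 had negative interactions and 0 positive ones, with a median of -0.36. When 1 library was left out, 7 to 10 were negative. CPD (AT5G05690), a cytochrome P450 of brassinosteroid synthesis, was at 142, 180.2 and 169.6 TPM in fve-4 at 27 °C and 99.4, 90.2 and 84.3 TPM in fve-4 at 21 °C, against 260.2, 266 and 278 TPM in Col at 27 °C and 77.6, 81.3 and 79.2 TPM in Col at 21 °C. Its interaction was -0.91 ± 0.11 (adjusted p = 6.57e-05), with rises of 0.83 in fve-4 and 1.74 in Col. BAS1 (AT2G26710), which inactivates brassinosteroids, had an interaction of -0.77 ± 0.12 and BZR1 (AT1G75080), a transcription factor of the pathway, one of -0.71 ± 0.11. Of 18 ethylene genes 13 were negative and 0 positive, with a median of -0.43. The receptor gene ERS2 (AT1G04310) was at -0.96 ± 0.13 and EBF2 (AT5G25350), whose F-box protein removes the ethylene factor EIN3, at -0.86 ± 0.08 with a change at 27 °C of -0.01 in fve-4 and 0.85 in Col. The synthesis gene ACS8 (AT4G37770) was at -1.76 ± 0.38, a call lost with a pseudocount of 0.1 TPM (adjusted p = 0.236) and by limma-voom on recovered reads (adjusted p = 0.769). Of 15 gibberellin genes 6 were negative and 2 positive (18.0% and 14.4% over all genes tested). The positive ones were GA3OX1 (AT1G15550) at 1.18 ± 0.21 and GA3OX2 (AT1G80340) at 1.77 ± 0.35, which make bioactive gibberellin, while GA2OX6 (AT1G02400), which inactivates it, was at -1.33 ± 0.16.

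Of 17 circadian clock genes 10 had negative interactions and 1 a positive one, with a median of -0.45. LUX (AT3G46640), a DNA-binding protein of the evening complex that represses PIF4, was at 43.3, 47.3 and 47.3 TPM in fve-4 at 27 °C and 6.16, 5.98 and 6.05 TPM in fve-4 at 21 °C, against 69.6, 70.6 and 68.3 TPM in Col at 27 °C and 4.67, 4.57 and 5.17 TPM in Col at 21 °C. Warmth raised it strongly in both genotypes, by 2.73 in fve-4 and 3.60 in Col, and the interaction was -0.87 ± 0.09 (adjusted p = 3.12e-05). PRR7 (AT5G02810), a pseudo-response regulator, was at 2.31, 3.43 and 3.56 TPM in fve-4 at 27 °C and 1.18, 1.33 and 1.28 TPM in fve-4 at 21 °C, against 11.8, 13.97 and 12.9 TPM in Col at 27 °C and 1.16, 1.01 and 1.17 TPM in Col at 21 °C, with an interaction of -1.87 ± 0.20. Its 4 groups did not overlap, but at 21 °C the genotypes all but touched. The difference of fve-4 from Col was 0.10 at 21 °C (adjusted p = 0.667 by limma) and -1.77 at 27 °C. GI (AT1G22770) had an interaction of -1.34 ± 0.19 and BOA (AT5G59570), a LUX relative, one of -0.96 ± 0.09, while PRR5 (AT5G24470) was at -0.04 ± 0.17 (adjusted p = 0.88). The positive member, named after its value was seen, was ELF4 (AT2G40080), a partner of LUX, at 0.57 ± 0.14.

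Wall growth genes did not share a direction. Of 18 genes 6 had a positive interaction and 4 a negative one (14.4% and 18.0% over all genes tested), with a median of 0.11. EXPA8 (AT2G40610), an expansin, was at 86.3, 71.6 and 74.4 TPM in fve-4 at 27 °C and 47.8, 34.9 and 41.2 TPM in fve-4 at 21 °C, against 153, 171 and 191 TPM in Col at 27 °C and 36.2, 28.5 and 29.04 TPM in Col at 21 °C. The genotypes overlapped at 21 °C and not at 27 °C, where fve-4 was lower, with an interaction of -1.52 ± 0.17. EXPA4 (AT2G39700), of the same family, was at 116, 109.6 and 105 TPM in fve-4 at 27 °C and 49.8, 62.7 and 60.6 TPM in fve-4 at 21 °C, against 74.1, 77.97 and 73.8 TPM in Col at 27 °C and 96.6, 101 and 96.4 TPM in Col at 21 °C. All EXPA4 values at 27 °C were above those at 21 °C in fve-4 and below them in Col. The interaction was 1.30 ± 0.10 (adjusted p = 3.48e-06). XTH24 (AT4G30270), a xyloglucan endotransglucosylase, had an interaction of -1.06 ± 0.27.

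The list medians farthest above 0 were those of the synthesis of aliphatic glucosinolates, sulfur-rich defence compounds of the cabbage family made from methionine. All 10 genes of methionine chain elongation and all 11 of the core pathway had a positive interaction, with medians of 3.87 and 3.24. Both lists were chosen with earlier results of these data known. The median change at 27 °C was 0.01 in fve-4 and -3.48 in Col for chain elongation, and -0.01 in fve-4 and -3.18 in Col for the core. All 21 were lower in fve-4 than in Col at 21 °C (background 8.49% lower and 15.3% higher) and higher at 27 °C (background 20.9% higher and 17.6% lower).

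BCAT4 (AT3G19710), the aminotransferase that starts chain elongation, was at 39.4, 32.3 and 28.5 TPM in fve-4 at 27 °C and 6.05, 18.7 and 23.6 TPM in fve-4 at 21 °C, against 2.91, 1.44 and 1.65 TPM in Col at 27 °C and 58.1, 63.7 and 60.8 TPM in Col at 21 °C. Every fve-4 library lay above every Col library at 27 °C and below every Col library at 21 °C, and the interaction was 5.58 ± 0.48 (adjusted p = 6.44e-06). MAM1 (AT5G23010), the synthase that extends the chain, was at 80.5, 73.1 and 64.8 TPM in fve-4 at 27 °C and 41.6, 84.8 and 83.2 TPM in fve-4 at 21 °C, against 17.6, 11.1 and 15.2 TPM in Col at 27 °C and 179, 191 and 188 TPM in Col at 21 °C. The fve-4 libraries of both temperatures overlapped and lay between the 2 Col groups, with an interaction of 3.73 ± 0.31. IPMI1 (AT3G58990), an isomerase subunit of the same cycle, was at 4.66 and IMD1 (AT5G14200), its dehydrogenase, at 4.01. IMD3 (AT1G31180), a dehydrogenase related to leucine synthesis, had the smallest interaction of the 10 at 0.55 ± 0.10. CYP79F1 (AT1G16410), the cytochrome P450 that turns elongated methionine into an aldoxime, was at 30.2, 25.3 and 21.7 TPM in fve-4 at 27 °C and 7.75, 24.8 and 32.2 TPM in fve-4 at 21 °C, against 1.05, 0.435 and 1.03 TPM in Col at 27 °C and 82.5, 88.02 and 90.5 TPM in Col at 21 °C. The fve-4 libraries again lay between the Col libraries of both temperatures, and the interaction was 6.04 ± 0.49 (adjusted p = 4.77e-06). CYP79F1 reads may be shared with its tandem copy CYP79F2, which was at 3.66. CYP83A1 (AT4G13770), the next enzyme, was at 124, 110.1 and 106 TPM in fve-4 at 27 °C and 79.3, 110.3 and 128 TPM in fve-4 at 21 °C, against 17.6, 13.4 and 14.3 TPM in Col at 27 °C and 229, 240.4 and 249 TPM in Col at 21 °C. Here too the fve-4 temperatures overlapped, between the Col groups, with an interaction of 4.03 ± 0.19. FMOGS-OX3 (AT1G62560), which oxidises the side chain, was at 3.81 and UGT74B1 (AT1G24100), a glucosyltransferase also used for indole glucosinolates, at 1.38 ± 0.12. Replicate 1 of fve-4 at 21 °C was the lowest of its group for BCAT4, CYP79F1 and MAM1, and without it the interactions of BCAT4 and CYP79F1 were 5.03 and 5.46.

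Of 8 glucosinolate regulators 4 had a positive interaction and 1 a negative one, with a median of 0.48. MYB29 (AT5G07690), an R2R3-MYB activator of the aliphatic pathway, was at 7.61, 6.49 and 5.99 TPM in fve-4 at 27 °C and 5.09, 9.47 and 7.40 TPM in fve-4 at 21 °C, against 0.617, 0.938 and 1.60 TPM in Col at 27 °C and 14.6, 19.4 and 15.2 TPM in Col at 21 °C. In fve-4 the temperatures overlapped, and in Col they were far apart, with an interaction of 3.02 ± 0.29 (adjusted p = 1.41e-05). MYB76 (AT5G07700) was at 2.35 ± 0.32 and MYB28 (AT5G61420), of the same subgroup, at 0.71 ± 0.08. MYB34 (AT5G60890), which activates indole glucosinolate genes, was at 0.79 ± 0.14, and MYC4 (AT4G17880), a bHLH partner of these MYBs, at -0.03 ± 0.13 (adjusted p = 0.901). Of 11 indole glucosinolate genes 7 were positive and 3 negative. CYP79B2 (AT4G39950), which makes the aldoxime from tryptophan, was at 97.1, 71.6 and 69.8 TPM in fve-4 at 27 °C and 57.7, 80.9 and 98.97 TPM in fve-4 at 21 °C, against 50.6, 52.9 and 48.5 TPM in Col at 27 °C and 157, 149.6 and 148 TPM in Col at 21 °C. In fve-4 the temperatures overlapped, with an interaction of 1.58 ± 0.22. GSTF9 (AT2G30860), a glutathione transferase of the core pathway, was at 1.99 ± 0.16. The 3 negative members modify the indole ring: IGMT1 (AT1G21100), a methyltransferase, at -1.77 ± 0.18, and, named after their values were seen, IGMT2 (AT1G21120) at -1.24 ± 0.29 and CYP81F2 (AT5G57220) at -1.05 ± 0.27. With a filter of 5 TPM 1 of them was called. IGMT1 fell by 0.36 at 27 °C in fve-4 and rose by 1.41 in Col, and it may share reads with IGMT2.

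Of 13 sulfate and sulfur-deficiency genes 9 had a positive interaction and 0 a negative one, with a median of 1.24. APR1 (AT4G04610), which reduces activated sulfate, was at 59.6, 46.1 and 42.5 TPM in fve-4 at 27 °C and 61.97, 58.9 and 69.4 TPM in fve-4 at 21 °C, against 18.9, 19.3 and 13.4 TPM in Col at 27 °C and 89.7, 99.2 and 105 TPM in Col at 21 °C. The interaction was 2.09 ± 0.19 (adjusted p = 1.02e-05), and fve-4 was higher than Col at 27 °C and lower at 21 °C. APK2 (AT4G39940), the kinase that makes the sulfate donor of glucosinolate sulfation, was at 2.29 ± 0.23. LSU1 (AT3G49580), a gene induced by low sulfur, was at 17.6, 11.4 and 12.2 TPM in fve-4 at 27 °C and 2.32, 1.12 and 0.869 TPM in fve-4 at 21 °C, against 1.63, 0.949 and 0.198 TPM in Col at 27 °C and 0.869, 2.05 and 3.44 TPM in Col at 21 °C. The 3 fve-4 libraries at 27 °C stood above all others, and the interaction was 3.30 ± 0.48 (adjusted p = 0.000215). The vacuolar sulfate exporter gene SULTR4;2 (AT3G12520) was at -0.05 ± 0.22 (adjusted p = 0.887). AK3 (AT3G02020), an aspartate kinase upstream of methionine and in no list, was at 17.4, 13.9 and 14.7 TPM in fve-4 at 27 °C and 5.39, 13.04 and 15.9 TPM in fve-4 at 21 °C, against 1.42, 0.843 and 1.16 TPM in Col at 27 °C and 33.4, 37.7 and 37.6 TPM in Col at 21 °C. As for MAM1, the fve-4 libraries of both temperatures overlapped and lay between the Col groups. The interaction of AK3 was 4.63 ± 0.37, or 4.21 without replicate 1 of fve-4 at 21 °C.

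**Figure D3:**
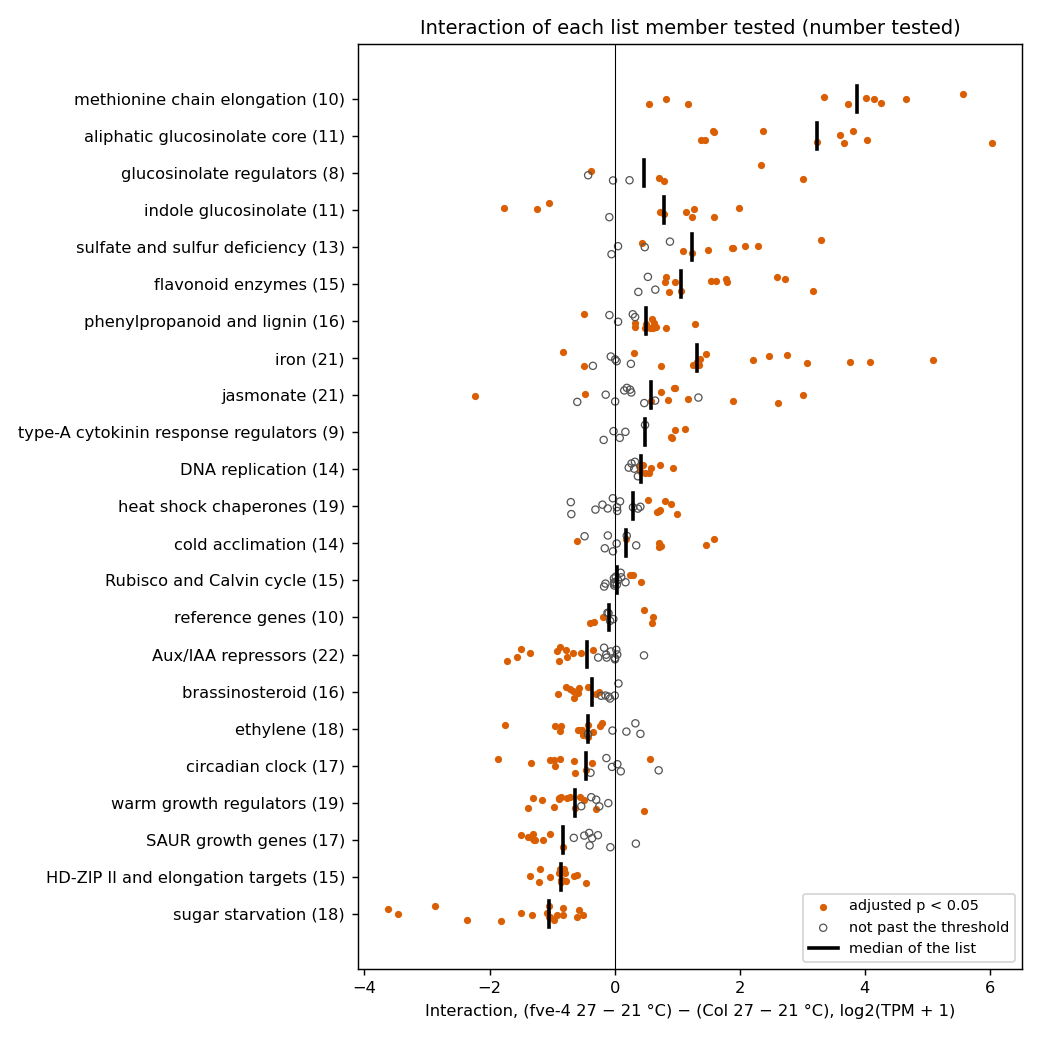
Interaction of every member tested in 23 of the lists, on the log2(TPM + 1) scale, with the number tested in brackets, filled points for an adjusted p under 0.05 and a bar at the median. All glucosinolate chain elongation and core genes lie right of 0 and all sugar starvation and HD-ZIP II genes left of it, while the Rubisco and reference lists centre on 0.

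Of 15 flavonoid enzymes 14 fell at 27 °C in fve-4 (14.0% over all genes tested) and 15 in Col (25.1%). Of the 15, 12 had a positive interaction and 0 a negative one, with a median of 1.06, and the median change at 27 °C was -1.16 in fve-4 and -3.26 in Col. CHS (AT5G13930), chalcone synthase, which starts the pathway, was at 292, 192 and 192 TPM in fve-4 at 27 °C and 304, 343 and 396 TPM in fve-4 at 21 °C, against 33.1, 28.9 and 17.98 TPM in Col at 27 °C and 368, 376 and 386 TPM in Col at 21 °C. The genotypes overlapped at 21 °C and were far apart at 27 °C, and the interaction was 3.17 ± 0.27 (adjusted p = 6.23e-06). LDOX (AT4G22880), which makes the coloured anthocyanidins, was at 21.8, 13.2 and 13.8 TPM in fve-4 at 27 °C and 58.4, 61.2 and 61.2 TPM in fve-4 at 21 °C, against 0.341, 1.87 and 1.38 TPM in Col at 27 °C and 41.99, 43.3 and 49.6 TPM in Col at 21 °C. In both genotypes all libraries at 27 °C were below those at 21 °C, with an interaction of 2.59 ± 0.32 (adjusted p = 7.9e-05). FLS1 (AT5G08640), flavonol synthase, was at 2.73 ± 0.34 and F3H (AT3G51240), flavanone 3-hydroxylase, at 1.80 ± 0.29. The glucosyltransferase gene UGT78D2 (AT5G17050) was at 0.38 ± 0.14 (adjusted p = 0.054), which passed under 6 of 21 alternatives (lowest adjusted p = 0.00887). Among 9 flavonoid regulators 0 were positive and 1 was negative by limma, while limma-voom called 2 positive. The negative one was MYBL2 (AT1G71030), which represses anthocyanin genes, at 9.08, 12.5 and 11.9 TPM in fve-4 at 27 °C and 9.82, 7.69 and 6.79 TPM in fve-4 at 21 °C, against 18.6, 17.2 and 20.7 TPM in Col at 27 °C and 3.03, 4.62 and 4.49 TPM in Col at 21 °C. At 21 °C fve-4 was above Col and at 27 °C below it, with an interaction of -1.57 ± 0.23 (adjusted p = 0.00021). Of 16 phenylpropanoid and lignin genes 11 were positive and 1 negative, with a median of 0.50. When 1 library was left out, 8 to 12 were positive. 4CL3 (AT1G65060), the ligase isoform tied to flavonoids, was at 1.29 ± 0.19, PAL1 (AT2G37040), the entry enzyme, at 0.81 ± 0.20, and OMT1 (AT5G54160), which methylates lignin and flavonol precursors, at 0.67 ± 0.11.

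The list median farthest below 0 was that of genes known to be induced by darkness and sugar starvation. All 18 members of that list had a negative interaction, with a median of -1.05. Because the lists were chosen with earlier results of these data known, this shared direction is a description. At 27 °C 11 of them rose in fve-4 (25.2% over all genes tested) and 18 in Col (36.7%). At 21 °C fve-4 was above Col for 16 of the 18 (15.3% over all genes tested) and below it for 0 (8.49%). At 27 °C it was below Col for 14 (17.6%) and above it for 0 (20.9%). ASN1 (AT3G47340), asparagine synthetase, was at 166, 246 and 245 TPM in fve-4 at 27 °C and 64.1, 40.1 and 25.6 TPM in fve-4 at 21 °C, against 207, 227 and 219 TPM in Col at 27 °C and 4.90, 5.03 and 4.21 TPM in Col at 21 °C. At 27 °C the genotypes overlapped, and at 21 °C every fve-4 library was above every Col library, with an interaction of -2.88 ± 0.33 (adjusted p = 4.67e-05). SEN1 (AT4G35770), a dark-induced senescence-associated gene, was at 424, 765 and 764 TPM in fve-4 at 27 °C and 346, 218 and 174 TPM in fve-4 at 21 °C, against 732, 708 and 604 TPM in Col at 27 °C and 20.04, 23.9 and 22.6 TPM in Col at 21 °C. Its pattern over the groups was like that of ASN1, with an interaction of -3.47 ± 0.33. BCAT2 (AT1G10070), an aminotransferase of branched-chain amino acid breakdown, was at 6.39, 8.55 and 9.63 TPM in fve-4 at 27 °C and 22.1, 9.69 and 7.75 TPM in fve-4 at 21 °C, against 30.6, 31.8 and 28.9 TPM in Col at 27 °C and 3.46, 2.39 and 2.14 TPM in Col at 21 °C. In fve-4 the temperatures overlapped and in Col they did not, with an interaction of -3.63 ± 0.39 (adjusted p = 2.83e-05), or -3.21 without replicate 1 of fve-4 at 21 °C. MGL (AT1G64660), methionine gamma-lyase, which breaks methionine down, was at 33.5, 29.8 and 35.5 TPM in fve-4 at 27 °C and 36.7, 29.1 and 24.2 TPM in fve-4 at 21 °C, against 98.6, 109 and 99.8 TPM in Col at 27 °C and 17.03, 18.1 and 16.7 TPM in Col at 21 °C. It had the pattern of BCAT2, with an interaction of -2.36 ± 0.16. The smallest interaction of the list was that of TPS10 (AT1G60140), a class II trehalose phosphate synthase family member, at -0.51 ± 0.12 (adjusted p = 0.00475). Among 13 genes of starch breakdown at night the counts were mixed, with 3 positive and 2 negative (14.4% and 18.0% over all genes tested). BAM3 (AT4G17090), a chloroplast beta-amylase, was at 0.54 ± 0.08, and GWD1 (AT1G10760), which phosphorylates starch, at -0.50 ± 0.08.

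Of 21 iron genes, 6 fell at 27 °C in fve-4 (14.0% over all genes tested) and 18 in Col (25.1%). In 14 of them the interaction was positive and in 2 negative, with a median of 1.32. IRT1 (AT4G19690), the root iron transporter, was at 112, 70.1 and 65.3 TPM in fve-4 at 27 °C and 65.00, 79.7 and 74.5 TPM in fve-4 at 21 °C, against 19.7, 16.02 and 2.33 TPM in Col at 27 °C and 180.4, 146 and 159 TPM in Col at 21 °C. In fve-4 the temperatures overlapped, and in Col they did not, with an interaction of 4.08 ± 0.68 (adjusted p = 0.000614). FRO2 (AT1G01580), the ferric reductase of the root surface, was at 43.6, 29.1 and 28.99 TPM in fve-4 at 27 °C and 14.8, 21.4 and 19.1 TPM in fve-4 at 21 °C, against 6.49, 5.55 and 1.45 TPM in Col at 27 °C and 40.8, 35.4 and 33.9 TPM in Col at 21 °C. Warmth gave changes of 0.83 in fve-4 and -2.93 in Col, with an interaction of 3.76 ± 0.45. CYP82C4 (AT4G31940), which makes iron-binding coumarins, was at 18.04, 16.2 and 11.98 TPM in fve-4 at 27 °C and 8.93, 8.34 and 10.6 TPM in fve-4 at 21 °C, against 1.51, 0.584 and 0.183 TPM in Col at 27 °C and 37.2, 31.2 and 37.2 TPM in Col at 21 °C. It had the pattern of FRO2, with an interaction of 5.09 ± 0.31 (adjusted p = 6.34e-07). NAS1 (AT5G04950), nicotianamine synthase, was at 3.08 ± 0.34. The negative members, named after their values were seen, were FER1 (AT5G01600) at -0.83 ± 0.15 and FER4 (AT2G40300) at -0.49 ± 0.09, which encode the iron-storing ferritins. BTS (AT3G18290), a ubiquitin ligase that restrains the iron response, was at 0.01 ± 0.09 (adjusted p = 0.948). Replicate 3 of Col at 27 °C was the lowest library for IRT1, FRO2 and NAS1. Without it the interactions were 3.24 for IRT1, 3.26 for FRO2 and 2.73 for NAS1.

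Root hair genes were measured beside the iron genes. The 11 listed summed to between 110.7 and 195.5 TPM in fve-4 at 27 °C and 124.9 and 187.3 TPM in fve-4 at 21 °C, against 40.08 and 96.32 TPM in Col at 27 °C and 132.2 and 152.0 TPM in Col at 21 °C. Of the 11, 0 were at 0 in all libraries, and 1, LRX1 (AT1G12040), had a positive interaction, at 0.91 ± 0.31. The median interaction over the list was 0.77 and 10 of 11 lay above 0. At 27 °C 9 of the 11 were higher in fve-4 than in Col (20.9% over all genes tested) and at 21 °C 0 were (15.3%). With warmth 0 of them fell in fve-4 (14.0% over all genes tested) and 7 in Col (25.1%). The count of positive interactions was 0 without any 1 of 8 libraries, 3 without replicate 2 of fve-4 at 27 °C or replicate 1 of Col at 27 °C, and 5 by limma-voom. The 15 root markers summed to between 227.1 and 258.3 TPM in fve-4 at 27 °C and 298.5 and 340.7 TPM in fve-4 at 21 °C, against 186.7 and 271.6 TPM in Col at 27 °C and 225.2 and 270.9 TPM in Col at 21 °C. Of these 0 had a positive interaction and 2 a negative one (18.0% over all genes tested). The negative count was 0 with median-ratio scaling and 3 by limma-voom. The part of root hairs in the iron result was not tested.

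Among 21 jasmonate genes, fve-4 was higher than Col for 11 and lower for 2 at 27 °C (20.9% and 17.6% over all genes tested). At 21 °C it was higher for 2 and lower for 5 (15.3% and 8.49%). Of the 21, 9 had a positive interaction and 2 a negative one, with a median of 0.59. LOX2 (AT3G45140), the chloroplast lipoxygenase that starts jasmonate synthesis, was at 329.5, 117 and 120.3 TPM in fve-4 at 27 °C and 145, 197 and 213 TPM in fve-4 at 21 °C, against 21.05, 17.5 and 19.8 TPM in Col at 27 °C and 159, 186 and 196 TPM in Col at 21 °C. All fve-4 libraries at 27 °C were above all Col libraries at 27 °C, and at 21 °C the genotypes overlapped, with an interaction of 3.02 ± 0.41 (adjusted p = 0.000156). AOC2 (AT3G25770), allene oxide cyclase, was at 2.61 ± 0.29. Replicate 1 of fve-4 at 27 °C was the highest library for both, and without it LOX2 was at 2.53 and AOC2 at 2.27. ST2A (AT5G07010), a sulfotransferase of hydroxyjasmonate, was at 8.20, 10.5 and 10.1 TPM in fve-4 at 27 °C and 3.41, 4.17 and 3.63 TPM in fve-4 at 21 °C, against 65.4, 62.1 and 66.1 TPM in Col at 27 °C and 5.15, 5.58 and 4.95 TPM in Col at 21 °C. It rose in both genotypes and was lower in fve-4 at both temperatures, with an interaction of -2.24 ± 0.14 (adjusted p = 7.85e-07). The other negative member, named after its value was seen, was COI1 (AT2G39940), the jasmonate receptor gene, at -0.48 ± 0.07. Of 10 salicylic acid defence genes 4 were positive and 1 negative (14.4% and 18.0% over all genes tested). PCC1 (AT3G22231), a pathogen-induced gene under clock control, was at 36.1, 58.03 and 50.7 TPM in fve-4 at 27 °C and 1.58, 10.3 and 10.3 TPM in fve-4 at 21 °C, against 0.334, 0.969 and 0.203 TPM in Col at 27 °C and 2.66, 4.03 and 3.82 TPM in Col at 21 °C. All its values at 27 °C were above those at 21 °C in fve-4 and below them in Col. The interaction was 4.41 ± 0.62 (adjusted p = 0.000175), or 3.70 without replicate 1 of fve-4 at 21 °C. WRKY70 (AT3G56400), a transcription factor of salicylic acid responses, was at 1.04 ± 0.28, and ICS1 (AT1G74710), the main salicylic acid synthesis gene, at -0.02 ± 0.15 (adjusted p = 0.946). CBP60g (AT5G26920), which activates ICS1 in infection, was the negative member at -1.31 ± 0.27, or -1.09 without replicate 2 of fve-4 at 21 °C.

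Of 19 heat shock chaperones 7 had a positive interaction and 0 a negative one, with a median of 0.29. Of 15 heat shock factors 1 was positive and 4 negative (14.4% and 18.0% over all genes tested). HSP70 (AT3G12580) was at 57.2, 52.5 and 45.8 TPM in fve-4 at 27 °C and 9.12, 11.9 and 9.33 TPM in fve-4 at 21 °C, against 55.1, 53.2 and 49.02 TPM in Col at 27 °C and 12.4, 12.2 and 13.6 TPM in Col at 21 °C. The 27 °C libraries of both genotypes overlapped, and the interaction was 0.29 ± 0.14 (adjusted p = 0.132), past the threshold only without replicate 2 of fve-4 at 21 °C (adjusted p = 0.0291). HSP101 (AT1G74310), which resolves aggregates, was at -0.19 ± 0.17 (adjusted p = 0.41), and HSP90.1 (AT5G52640) at -0.03 ± 0.15 (adjusted p = 0.906). Among those called, HOP3 (AT4G12400), a co-chaperone, was at 0.90 ± 0.16, with rises of 2.85 in fve-4 and 1.94 in Col. Other called members had another pattern. AT3G09440 was at 0.99 ± 0.11, with changes at 27 °C of -0.01 in fve-4 and -1.01 in Col. HSP90.3 (AT5G56010), at 0.81 ± 0.14, changed by 0.07 in fve-4 and -0.74 in Col. HSP90.2 (AT5G56030), at 0.73 ± 0.11, changed by -0.02 in fve-4 and -0.74 in Col. At 21 °C fve-4 differed from Col by -0.86, -0.49 and -0.50 for these genes. The factor gene HSFA7A (AT3G51910) was at -1.08 ± 0.17 and HSFA3 (AT5G03720) at -0.90 ± 0.19. Of 14 cold acclimation genes 6 were positive and 1 negative (14.4% and 18.0% over all genes tested). The positive count was 4 with quantile normalization and 4 to 6 when 1 library was left out. The call of COR15B (AT2G42530) was lost under 14 of 21 alternatives. COR15A (AT2G42540), which protects chloroplast membranes in the cold, was at 5.40, 3.24 and 4.58 TPM in fve-4 at 27 °C and 127, 191 and 189 TPM in fve-4 at 21 °C, against 1.88, 0.951 and 3.36 TPM in Col at 27 °C and 239, 290.4 and 295 TPM in Col at 21 °C. In both genotypes all libraries at 27 °C were far below those at 21 °C, and the interaction was 1.60 ± 0.34 (adjusted p = 0.00334). Its reads may be shared with COR15B.

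Of 22 photosystem and light-harvesting genes 7 were negative and 2 positive (18.0% and 14.4% over all genes tested), with a median of -0.10. Of 15 Rubisco and Calvin cycle genes 3 were positive (14.4% over all genes tested), with a median of 0.04. LHCB2.2 (AT2G05070), an antenna protein gene, was at -0.63 ± 0.10 and LHCB3 (AT5G54270) at 0.56 ± 0.12, both within families of similar copies. CP12-2 (AT3G62410), a regulator of the Calvin cycle, was at 0.42 ± 0.07. The positive count was 1 without any 1 of 5 libraries and 5 without replicate 3 of Col at 27 °C. Of 14 chlorophyll synthesis genes 7 were positive and 4 negative, but 2 were negative by limma-voom and without replicate 2 of fve-4 at 27 °C. CHLH (AT5G13630), a subunit of magnesium chelatase, was at -0.51 ± 0.08 and PORC (AT1G03630), a protochlorophyllide reductase, at 0.41 ± 0.09.

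Of 14 DNA replication genes 9 had a positive interaction and 0 a negative one, with a median of 0.42, and 6 to 9 were called when 1 library was left out. PCNA1 (AT1G07370), the sliding clamp of DNA polymerase, was at 24.7, 21.4 and 22.2 TPM in fve-4 at 27 °C and 24.97, 30.8 and 35.4 TPM in fve-4 at 21 °C, against 14.8, 16.5 and 13.9 TPM in Col at 27 °C and 41.2, 38.5 and 37.6 TPM in Col at 21 °C. At 27 °C fve-4 was above Col and at 21 °C below it, and the interaction was 0.93 ± 0.15 (adjusted p = 0.000478), with changes at 27 °C of -0.39 in fve-4 and -1.32 in Col. TSO2 (AT3G27060), a subunit of ribonucleotide reductase, was at 0.73 ± 0.09. Of 14 mitotic genes 2 were positive, close to the 14.4% over all genes tested, KNOLLE (AT1G08560), a syntaxin of the cell plate, at 0.35 ± 0.10 and CDKB1;1 (AT3G54180), a cyclin-dependent kinase, at 0.77 ± 0.23, the second lost without any 1 of 5 libraries. Of 9 type-A response regulators, which cytokinin induces and which dampen its signal, 4 were positive and 0 negative. ARR7 (AT1G19050) was at 11.04, 8.83 and 9.32 TPM in fve-4 at 27 °C and 31.1, 30.5 and 24.7 TPM in fve-4 at 21 °C, against 4.90, 7.39 and 4.42 TPM in Col at 27 °C and 37.6, 38.8 and 37.4 TPM in Col at 21 °C. In both genotypes all libraries at 27 °C were below those at 21 °C, with an interaction of 1.12 ± 0.20. ARR4 (AT1G10470) was at 0.96 ± 0.09 and ARR8 (AT2G41310) at -0.02 ± 0.11 (adjusted p = 0.925). Of 12 nitrogen assimilation genes 7 were positive and 2 negative, but 4 were positive without replicate 1 of fve-4 at 27 °C or replicate 1 of fve-4 at 21 °C. NIA1 (AT1G77760), nitrate reductase, was a negative member at -0.65 ± 0.12.

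FLC (AT5G10140), the floral repressor that FVE keeps low, was at 28.2, 28.4 and 29.99 TPM in fve-4 at 27 °C and 22.8, 25.5 and 21.3 TPM in fve-4 at 21 °C, against 3.06, 2.91 and 2.60 TPM in Col at 27 °C and 2.58, 2.93 and 3.18 TPM in Col at 21 °C. Every fve-4 library was far above every Col library at both temperatures, and the interaction was 0.32 ± 0.14 (adjusted p = 0.09, or 0.0406 with a pseudocount of 5 TPM). SOC1 (AT2G45660), a floral promoter that FLC represses, had an interaction of -0.61 ± 0.23 (adjusted p = 0.0602), which passed the threshold under 6 of 20 alternatives (lowest adjusted p = 0.00503). Of 10 FLC clade and floral regulators 4 were negative and 1 positive (18.0% and 14.4% over all genes tested). The negative count was 3 with median-ratio scaling and 5 by limma-voom. SVP (AT2G22540), which encodes a partner of FLC, was at 30.6, 31.7 and 32.9 TPM in fve-4 at 27 °C and 22.05, 18.7 and 20.2 TPM in fve-4 at 21 °C, against 63.1, 61.5 and 65.8 TPM in Col at 27 °C and 21.7, 23.5 and 20.9 TPM in Col at 21 °C. At 21 °C the genotypes overlapped, and at 27 °C fve-4 was lower, with an interaction of -0.86 ± 0.10 (adjusted p = 4.06e-05). SPL3 (AT2G33810), a promoter of flowering, was at -1.05 ± 0.24. The positive member, MAF5 (AT5G65080), named after its value was seen, was at 0.68 ± 0.24, and the positive count was 0 with median-ratio or quantile scaling and by limma-voom.

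The remaining lists were mixed. Of 20 abscisic acid genes 6 were negative and 3 positive (18.0% and 14.4% over all genes tested). The bZIP factor genes ABF3 (AT4G34000) at -0.76 ± 0.15 and ABF4 (AT3G19290) at -0.71 ± 0.08 were among the negative ones. Of 10 senescence and chlorophyll breakdown genes 2 were negative, close to the 18.0% over all genes tested. ORE1 (AT5G39610), a NAC factor of leaf ageing, was a negative member at -1.22 ± 0.19. Of 8 seed maturation markers 0 had an interaction by limma, 0 had an unadjusted p under 0.05 and 0 were called by limma-voom, while 2 were negative without replicate 3 of fve-4 at 27 °C and 1 was positive without replicate 2 of fve-4 at 21 °C. Of 10 reference genes 3 were positive and 3 negative (14.4% and 18.0% over all genes tested). Those called lay between -0.39 for ACT8 (AT1G49240) and 0.61 for GAPC1 (AT3G04120).

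Several of the most negative interactions lay outside the lists. UMAMIT33 (AT4G28040), of a family of amino acid transporters, was at 14.5, 14.4 and 17.2 TPM in fve-4 at 27 °C and 31.5, 24.9 and 18.3 TPM in fve-4 at 21 °C, against 32.1, 32.7 and 26.7 TPM in Col at 27 °C and 5.65, 6.57 and 5.22 TPM in Col at 21 °C. All its values at 27 °C were below those at 21 °C in fve-4 and above them in Col. The interaction was -2.85 ± 0.22 (adjusted p = 3.1e-06). HIS1-3 (AT2G18050), a stress-induced linker histone, was at 68.5, 56.6 and 56.1 TPM in fve-4 at 27 °C and 145, 131 and 115 TPM in fve-4 at 21 °C, against 104, 113 and 96.8 TPM in Col at 27 °C and 43.1, 41.8 and 41.2 TPM in Col at 21 °C. The directions were again opposite, with an interaction of -2.39 ± 0.13 (adjusted p = 2.52e-07). CSD2 (AT2G28190), the chloroplast copper/zinc superoxide dismutase, was at 51.96, 39.2 and 42.3 TPM in fve-4 at 27 °C and 258, 185 and 159 TPM in fve-4 at 21 °C, against 58.6, 59.6 and 69.8 TPM in Col at 27 °C and 70.98, 58.7 and 55.98 TPM in Col at 21 °C. The fve-4 libraries at 21 °C stood above all others and the Col libraries overlapped between temperatures, with an interaction of -2.15 ± 0.22 (adjusted p = 1.95e-05). IRT3 (AT1G60960), a zinc and iron transporter, was at -1.94 ± 0.18, and FRO6 (AT5G49730), a ferric reductase of leaves, at -1.92 ± 0.18. THA1 (AT1G08630), threonine aldolase, was at -1.93 ± 0.35 and GAT1_2.1 (AT1G15040) at -2.48 ± 0.49. FLP1 (AT4G31380) was at -2.77 ± 0.49, a call lost with a pseudocount of 0.1 TPM (adjusted p = 0.152) and by limma-voom (adjusted p = 0.103). The most positive interaction of all genes tested was that of AT5G42530, a locus without a symbol in the annotation used and named after its value was seen. AT5G42530 was at 533, 961 and 865 TPM in fve-4 at 27 °C and 27.1, 54.9 and 70.8 TPM in fve-4 at 21 °C, against 3.93, 3.59 and 3.18 TPM in Col at 27 °C and 12.8, 23.8 and 26.2 TPM in Col at 21 °C. The fve-4 libraries at 27 °C stood above all others and the Col libraries at 27 °C below all others, with an interaction of 6.19 ± 0.45 (adjusted p = 1.98e-06).

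The same interaction can be read as a genotype difference that depends on temperature. In fve-4 against Col, 4158 genes were higher and 3490 lower at 27 °C, and 3039 were higher and 1687 lower at 21 °C. Of the 2851 genes with a positive interaction, 1589 were higher in fve-4 at 27 °C with no call at 21 °C, 511 were higher at 27 °C and lower at 21 °C, and 476 were lower at 21 °C with no call at 27 °C. Of the 3585 with a negative one, 1481 were lower at 27 °C with no call at 21 °C, 785 were lower at 27 °C and higher at 21 °C, and 930 were higher at 21 °C with no call at 27 °C. Differences of the same direction and called at both temperatures were few, 47 higher and 20 lower among the positive genes and 42 higher and 67 lower among the negative ones. The lists fell into these patterns differently. For the HD-ZIP II and elongation genes the median difference of fve-4 from Col was -0.94 at 27 °C and 0.00 at 21 °C, and for flavonoid enzymes it was 1.02 at 27 °C and -0.12 at 21 °C. For sugar starvation it was -0.46 at 27 °C and 0.65 at 21 °C, and for methionine chain elongation 2.14 at 27 °C and -1.42 at 21 °C, against 0.02 at 27 °C and 0.05 at 21 °C over all genes tested.

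**Figure D4:**
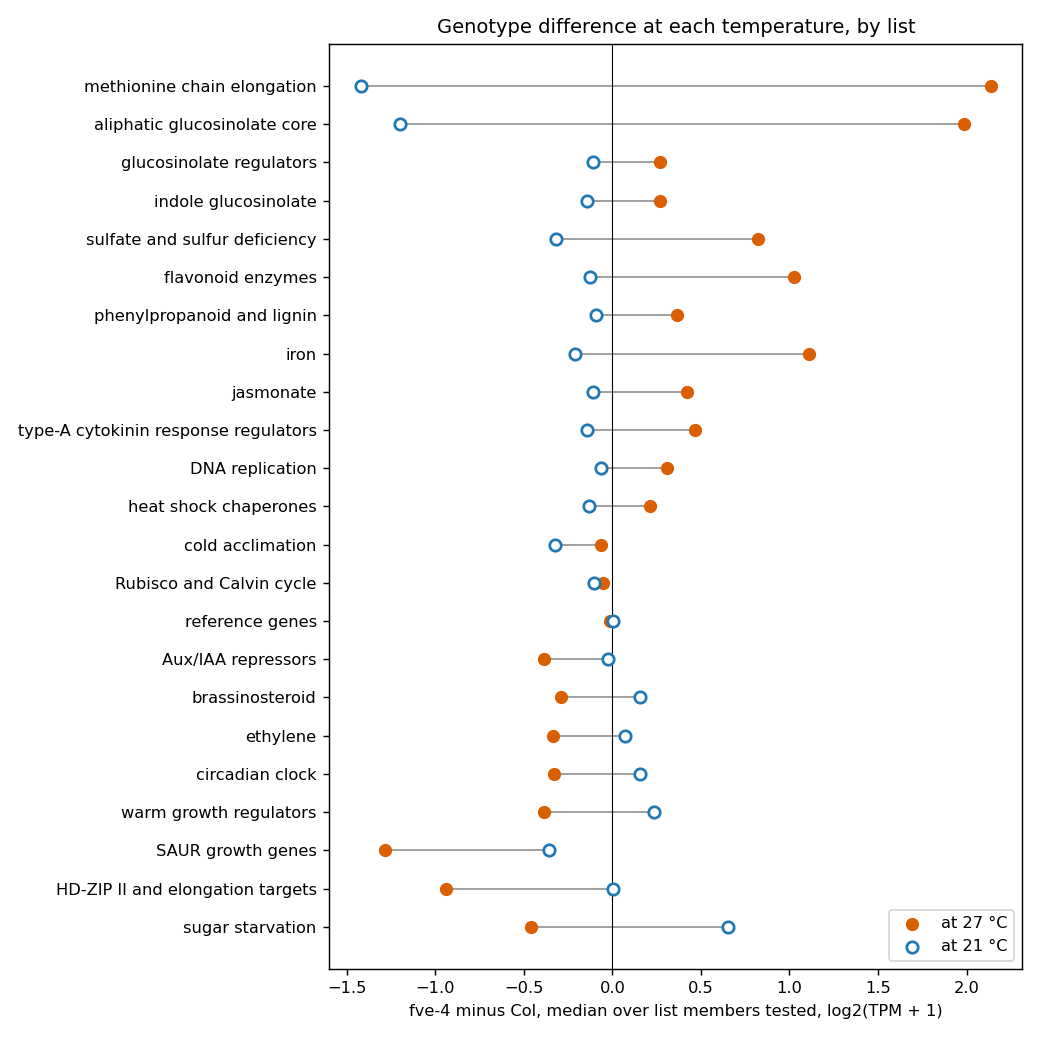
Median difference of fve-4 minus Col over the tested members of each list, on the log2(TPM + 1) scale, at 27 °C (filled orange) and at 21 °C (open blue). Glucosinolate, sulfur and iron lists cross 0 to the higher side at 27 °C, sugar starvation crosses to the lower side, and the HD-ZIP II list is near 0 at 21 °C and near -0.94 at 27 °C.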

How the data were processed

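RNA from whole Arabidopsis seedlings was sequenced in 12 libraries. The deposited values are TPM per gene. Per the submitters' processing notes the authors used fastp 0.20.1, HISAT2 2.1.10 and DESeq2 1.26.0 with the build TAIR10, and the strand setting is not given in the sources used here. Reads recovered from the TPM with gene spans came out whole, within 0.01 of a read, for 99.98% of the genes above 0 that have a span, so the TPM were divided by the gene span and long introns lower them. Near-identical copies (CYP79F1 and CYP79F2, the SAUR19 cluster, LSU1 and LSU2, AOC1 and AOC2, IGMT1 and IGMT2, COR15A and COR15B, KIN1 and KIN2, RBCS and LHCB genes) may share reads.

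limma 3.58.1 in R 4.3.3 was fitted to log2(TPM + 1) with 4 group means and a variance trend (8 residual degrees of freedom) over 19863 genes with at least 1 TPM in at least 3 libraries. A call is a Benjamini-Hochberg adjusted p under 0.05 over all of them. Fold changes on this scale understate those of low genes. An interaction, as a difference of 2 changes, can come out larger or smaller than without the added 1 TPM. That of IAA29 lay between -2.02 and -1.39 under the alternatives given below. The script was tested on simulated data. Lists held 668 genes, of which 608 were tested, after 9 written members were left out. Among genes averaging at least 5 TPM in their highest group, the text names from the 15 called genes with a symbol farthest out in each direction, up to 4 called members of each list with the largest interaction and the member with the smallest, beside fixed names such as FVE, PIF4 and FLC. Any other gene is marked in the text. Members and lists were chosen with earlier results of these data known. Alternatives were other pseudocounts, filters, scalings and thresholds, no variance trend, limma-voom on recovered reads, a replicate block and leaving out each library. Promoters and coordinates were not analysed here, nor was mannitol treatment. The result of 1 listed gene is not reported here.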

Additional observations from a re-analysis of the deposited data

Results flagged for a closer look

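The interaction compares the responses of fve-4 and Col, so each count and gene below is a tested difference between the genotypes. It was positive for 2851 genes and negative for 3585 genes by limma with Benjamini-Hochberg adjustment. For 628 of the called genes (3.16% of those tested), all 3 libraries at 27 °C lay on one side of the 3 at 21 °C in fve-4 and on the other side in Col, and 19 of these genes are named in the text. Fewer passed the test in both genotypes: 222 genes rose in fve-4 and fell in Col, and 151 fell in fve-4 and rose in Col.

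Among the named genes whose 27 °C libraries were all lower in fve-4 and all higher in Col than those at 21 °C, the interaction was -2.85 for UMAMIT33, -2.39 for HIS1-3, -1.94 for IRT3, -1.92 for FRO6 and -1.77 for IGMT1. It was -1.33 for the gibberellin-inactivating GA2OX6, -1.31 for CBP60g, -1.22 for ORE1, -0.96 for the receptor gene ERS2 and -0.71 for ABF4. Among those whose 27 °C libraries were all higher in fve-4 and all lower in Col, it was 5.58 for BCAT4, 5.09 for CYP82C4, 4.41 for PCC1, 3.76 for FRO2 and 3.08 for NAS1. It was 1.38 for UGT74B1, 1.30 for EXPA4, 0.70 for FVE and 0.54 for BAM3. The change at 27 °C did not pass the test in fve-4 for ERS2 (adjusted p = 0.218 by limma), ABF4 (0.157) and FRO2 (0.0513), nor in Col for CBP60g (0.14). For BCAT4 and PCC1 replicate 1 of fve-4 at 21 °C was the lowest of its group, and without it the interactions were 5.03 and 3.70.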

How the results depend on the processing

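The counts of 2851 positive and 3585 negative interactions stayed within 1.5 times under every other pseudocount, filter, scaling and fit. Leaving out 1 library gave 2417 to 2759 positive and 2989 to 3477 negative genes. An adjusted p under 0.01 gave 1656 and 2143. An adjusted p under 0.05 with a minimum of 1 on the log2 scale gave 505 and 347. The share of calls that were positive was 44.3%, against 49.2% with median-ratio rescaling, 47.8% with quantile normalization and 48.9% by limma-voom. Replicate numbers did not pair the libraries: same-numbered libraries had correlations of deviations between -0.135 and 0.187, and 5 of 12 correlated best with their own number. With the replicate block the counts were 2826 and 3527. The rule for named genes picked 167 called genes, not all of them printed in the text. Genes marked as named after their values were seen are outside this count. Of the 167, 148 were called under every pseudocount, filter, scaling and leave-out in which they were tested. Another 19 lost the call under at least 1, and 0 reversed. Not every gene was tested under all alternatives, and CBP60g was tested under 20 of 21. Of 88 list counts 66 stayed within 1.5 times under those alternatives. The cause of the lost calls was not tested. How depth limits the detection of small interactions was not tested by level.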
